A study of Mus musculus with 20 samples.

Results

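The miR-34 family was followed through diet-induced atherosclerosis in the mouse aorta with 4 mature microRNAs (miRNAs), mmu-miR-34a-5p, mmu-miR-34b-5p, mmu-miR-34b-3p and mmu-miR-34c-5p, written without the species prefix from here on. They were chosen by name, with earlier results of these data known, and all 4 were found among the 1881 mouse miRNAs on the array. The samples were ascending aorta with its lesion from male mice that the labels describe as double knock out, with Apobtm2Sgy as one of the alleles. Apob encodes the main structural apolipoprotein of low density lipoprotein. All groups had this background, and there was no wild type group. The groups were high fat diet at weeks 6, 18 and 30 (3 arrays each), chow at weeks 6, 18 and 30 (3 arrays each) and chow at week 0 (2 arrays), and the age in the labels was the same number of weeks. Each of the 20 samples gave total RNA that was labelled with Cy3 and hybridised to 1 Agilent array. Nothing in the labels ties a replicate to its own mouse, so a p-value here reflects only how far the arrayed samples vary, which may be technical.

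miRNAs are short RNAs that lower the output of messenger RNAs whose sites pair with the seed, bases 2 to 8 of the miRNA. The miR-34 genes are direct transcriptional targets of the tumour suppressor p53, and their products lower cell cycle and survival proteins, among them cyclin-dependent kinases, BCL2 and the deacetylase SIRT1. miR-34a is made from a gene of its own and is found in most tissues, and in the vessel wall it has been tied to senescence of endothelial and smooth muscle cells. miR-34b and miR-34c are cut from 1 shared primary transcript and are known for high levels in multiciliated epithelium, lung and testis, where the miR-449 cluster, which has the same seed, is also active.

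The sequences below show what the 5p arms share and where the arms of the 2 chromosomes differ. Mature and hairpin sequences are RefSeq's on GRCm38.p6, written 5′ to 3′ with the seed in capitals, and 3 of the 4 family members had a mature entry. The 5p arms of the family and miR-449a-5p carry the seed GGCAGUG, and the 3p arms of miR-34b and miR-34c carry the seed AUCACUA. The hairpin Mir34c is shown for the 5p arm of miR-34c, and its capitals mark the single copy of the 5p seed.
miR-34a-5p: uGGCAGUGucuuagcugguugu
miR-34b-5p: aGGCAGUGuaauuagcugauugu
miR-449a-5p: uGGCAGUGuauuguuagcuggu
miR-34b-3p: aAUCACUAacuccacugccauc
miR-34c-3p: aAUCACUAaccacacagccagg
Mir34c: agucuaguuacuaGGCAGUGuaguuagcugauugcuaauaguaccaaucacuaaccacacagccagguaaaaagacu

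On GRCm38.p6, Mir34a lies on the plus strand at chr4:150068454-150068555, and the RefSeq gene table held no other gene spanning it. Mir34b lies on the minus strand at chr9:51103562-51103645 and Mir34c on the same strand at chr9:51103034-51103110, 451 bases away, both within the spans of Btg4 and Hoatz. Each member was read by 2 probes of 15 spots each. The probes are complementary to the 3′ part of the miRNA and run into the seed. The longer probe of miR-34b-5p and that of miR-34c-5p are shown because their targets are close to each other, with capitals for the bases that pair with the seed.
miR-34b-5p probe: acaatcagctaattaCACTGCC
miR-34c-5p probe: gcaatcagctaactaCACTG
The longer miR-34b-5p probe left 2 of 22 bases unpaired on the Mir34c hairpin, and the longer miR-34c-5p probe left 2 of 20 bases unpaired on the Mir34b hairpin. Signal of one read by the probes of the other was not tested. The longer miR-34a-5p probe left 9 and 10 of 20 bases unpaired on the Mir34b and Mir34c hairpins, and the 3p probes of miR-34b left at least 5 bases unpaired on Mir34c. Over the 20 arrays the log2 values of the 2 probes of a member correlated at r = 0.98 (miR-34c-5p) to 1.00 (miR-34b-3p), with the array and its scaling in common.

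Arrays differed in how much they detected, from 316 to 742 miRNAs well above background. Of the markers for the labelled tissue, miR-145a-5p and miR-143-3p of smooth muscle and miR-126a-3p of endothelium were detected on 20 of 20 arrays. Of the other strands of the same hairpins, miR-143-5p and miR-126a-5p were detected on 18 arrays each and miR-145a-3p on 0. The striated muscle markers miR-1a-3p, miR-133a-3p and miR-133b-3p were also detected on 20 of 20 arrays, so these detections do not tell vessel wall from other tissue. Of the other striated muscle markers, miR-206-3p was detected on 18 arrays, miR-208a-3p on 3, miR-499-5p on 2 and miR-208b-3p on 0. Slide 1 held weeks 0 and 6, slide 2 the chow arrays of weeks 18 and 30 with 2 high fat arrays of week 18, and slide 3 the remaining high fat arrays of weeks 18 and 30. The array labelled week 18 high fat replicate 3 had a negative-control SD of 22.3 intensity units, against at most 2.53 on the other 19 arrays, and its profile differed from week 30 high fat replicate 2 by an SD of 0.19 (log2), close to the 0.18 between replicates 2 and 3 of week 30 high fat. Replicates 1 and 2 of week 6 chow differed by an SD of 0.28. The slide position in the sample descriptions differed from that in the scanner files for 8 arrays, and by the descriptions 1 week 18 high fat array and 1 week 18 chow array would change places. Levels below are log2 intensities scaled to each array's 75th percentile, with a floor at 3.10, and a miRNA is called detected where it was well above background.

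miR-34a-5p was the steady member, detected on 20 of 20 arrays with deposited intensities between 66.7 and 344. Its level was 6.86, 7.85 and 7.63 on the week 6 high fat arrays, against 8.18, 8.31 and 8.18 on the week 6 chow arrays. These groups did not overlap, which was also so for 15.9% of the 609 tested miRNAs at week 6. At week 18 it was 7.04, 8.01 and 6.48 on high fat, against 8.62, 7.26 and 7.75 on chow. At week 30 it was 8.00, 6.14 and 6.06 on high fat, against 7.95, 7.36 and 6.91 on chow, and at both later weeks the groups overlapped (1.31% and 54.2% of all tested miRNAs did not overlap at weeks 18 and 30). The 2 week 0 chow arrays read 7.20 and 8.15. The 3 lowest of all these levels came from slide 3, at 6.06 and 6.14 for week 30 and 6.48 for week 18, all on high fat. Between these 3 arrays the profiles differed by SDs of only 0.18 to 0.33 (log2). The remaining slide 3 array, with 8.00, lay above every week 30 chow array.

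The high fat mean of miR-34a-5p lay under the chow mean at each of the 3 weeks, without passing the test across all miRNAs. Weeks 18 and 30 cannot be counted as separate here, because near-identical slide 3 arrays lowered the high fat mean of both. The difference was -0.78 at week 6 (7.45 ± 0.52 on high fat and 8.23 ± 0.08 on chow, SD, n = 3 each), -0.70 at week 18 and -0.67 at week 30, each with an SE of 0.56 from the limma fit. The limma adjusted p was 0.643, 0.952 and 0.414 at weeks 6, 18 and 30, where 2.79%, 0% and 0% of all tested miRNAs were called (72, 7 and 102 had an unadjusted p under 0.05). Averaged over the 3 weeks the difference was -0.72 (SE 0.33), with a limma p of 0.0415 and an adjusted p of 0.307, in a comparison where 0% of the tested miRNAs were called and 97 had an unadjusted p under 0.05. The exact 2-sided permutation of the diet labels within each week gave p = 0.0353 for this mean over 8000 relabelings, unadjusted for the 4 members so tested. A single week of 3 against 3 arrays cannot go below p = 0.1 in such an exact permutation. The median difference over all tested miRNAs was -0.11, and the test for a diet effect of miR-34a-5p that differs between weeks did not pass (diet by time, limma adjusted p = 0.995, with 0.985% of all tested miRNAs called).

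The permutation result for miR-34a-5p did not hold under several other treatments of the same arrays. Without scaling between arrays the mean difference was -0.53 and the exact permutation p was 0.135. Near-identical arrays were averaged only within a group, as replicates 1 and 2 of week 6 chow and 2 and 3 of week 30 high fat. Week 18 high fat replicate 3 was left unaveraged. With those pairs averaged the mean difference was -0.61 with an exact p of 0.094. With the groups taken from the positions in the descriptions it was -0.37 with an exact p of 0.297, and the week 18 difference then turned to 0.35. All week 30 high fat arrays were on slide 3 and all week 30 chow arrays on slide 2. With slide as a block, estimable only through week 18, the week 30 difference was 0.37 and the 3-week mean was -0.25. That block rested on week 18 high fat replicate 3 alone, the array with the raised negative-control SD. Within slide 2 the week 18 difference was -0.35 (7.53 on 2 high fat arrays and 7.88 on 3 chow arrays). Leaving out 1 of the 18 arrays at a time kept the mean between -0.93 and -0.59, with an exact p under 0.05 in 10 of 18 cases. The exact p was above 0.05 without replicate 1 of week 6 high fat (0.0535), replicates 1 and 3 of week 18 high fat (0.0575 and 0.0733), replicates 2 and 3 of week 30 high fat (0.0798 and 0.0823), replicate 1 of week 18 chow (0.073), and replicates 1 and 2 of week 30 chow (0.0815 and 0.0578).

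**Figure D1:**
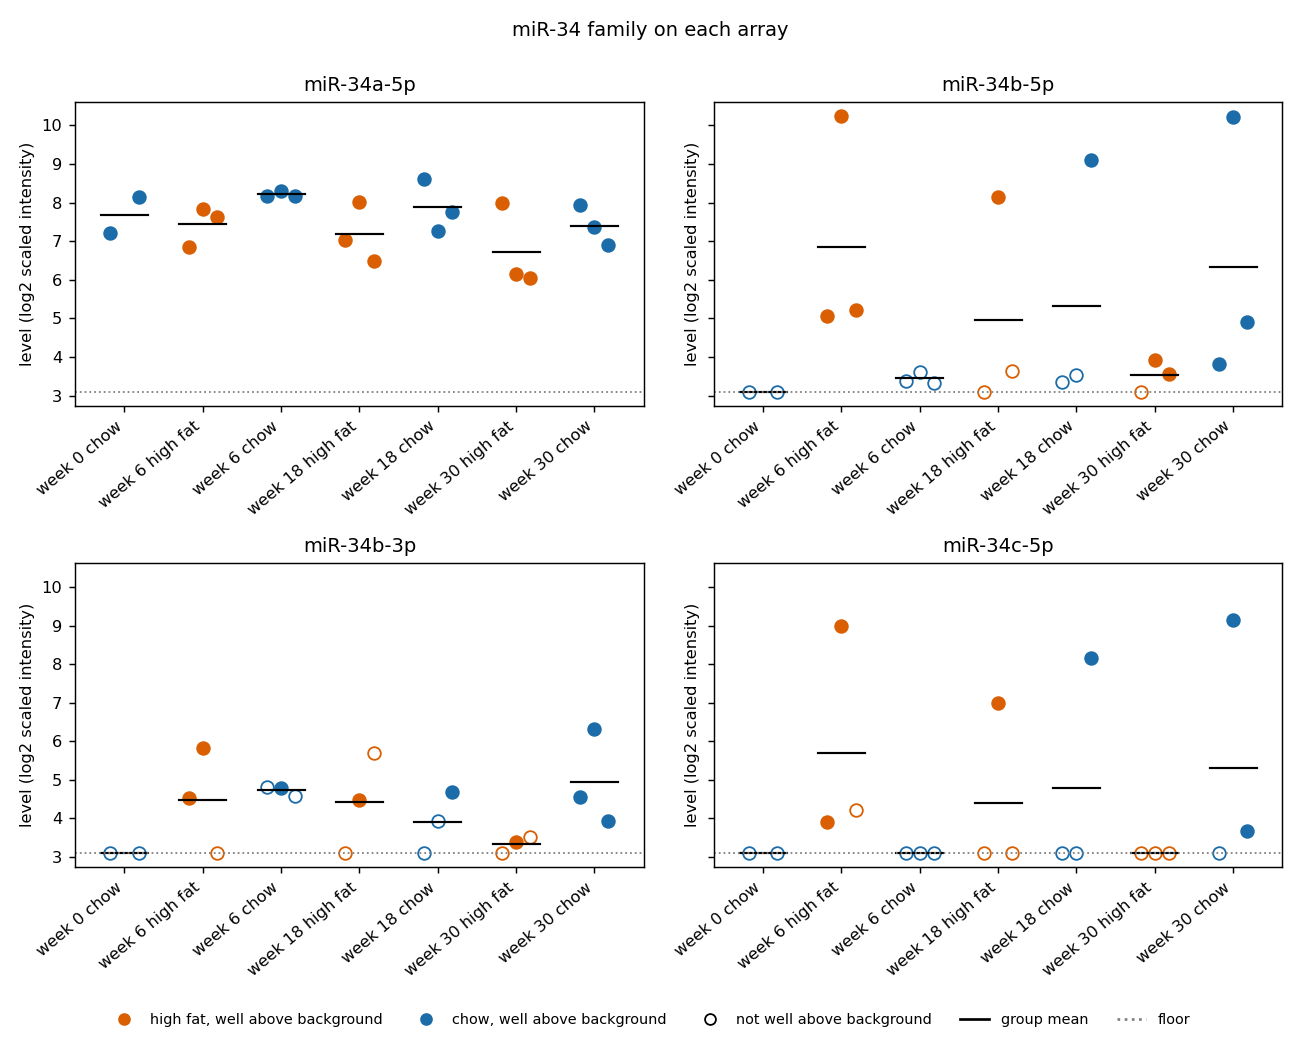
Level of each family member (log2 scaled intensity, y axis) on each of the 20 arrays by group (x axis); filled points were well above background, open points were not, black bars are group means and the dotted line is the floor at 3.10. miR-34a-5p stays between 6.06 and 8.62, while miR-34b-5p and miR-34c-5p stand far above the rest on 1 array in each of 4 groups.

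miR-34b-5p, the other family member with the same seed to be tested, was detected on 10 of 20 arrays, and its level was set by single arrays. It reached deposited intensities of 1072 on week 6 high fat replicate 2, 289 on week 18 high fat replicate 2, 732 on week 18 chow replicate 3 and 1190 on week 30 chow replicate 2. Its highest log2 level on the other 16 arrays was 5.21. In log2 levels the week 6 high fat arrays read 5.07, 10.25 and 5.21, against 3.39, 3.62 and 3.34 on week 6 chow, where it was never detected. The week 18 high fat arrays read 3.10, 8.15 and 3.64, against 3.35, 3.53 and 9.09 on week 18 chow. The week 30 high fat arrays read 3.10, 3.93 and 3.57, against 3.82, 10.22 and 4.92 on week 30 chow, and both week 0 arrays were at the floor. The high arrays came from both diets and from slides 1 and 2, with 2 on high fat and 2 on chow.

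miR-34c-5p, from the same transcript, was detected on 6 arrays and was high on the same 4. Its deposited intensity was 444 on week 6 high fat replicate 2, 129 on week 18 high fat replicate 2, 385 on week 18 chow replicate 3 and 567 on week 30 chow replicate 2. On the week 6 high fat arrays its log2 level was 3.92, 8.98 and 4.21, and all 3 week 6 chow arrays were at the floor. It was 3.10, 6.99 and 3.10 on week 18 high fat, against 3.10, 3.10 and 8.17 on week 18 chow. All 3 week 30 high fat arrays were at the floor, against 3.10, 9.15 and 3.68 on week 30 chow. The log2 levels of miR-34b-5p and miR-34c-5p moved together, with a difference between them that varied by an SD of 0.12 over the 6 arrays where both were detected. Their r over the 16 arrays outside the 4 high ones was 0.91, with most miR-34c-5p values there at the floor. The probes of each left only 2 bases unpaired on the hairpin of the other, and the part of shared signal was not tested. The passenger arm miR-34c-3p was detected on those 4 arrays and on no other, whereas miR-34a-3p was never detected.

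No diet difference of miR-34b-5p or miR-34c-5p passed the test. At week 6 miR-34b-5p was at least 9.57-fold higher on high fat, where 3 of 3 arrays detected it, than on chow, where 0 of 3 did, with means of 6.85 ± 2.95 and 3.45 ± 0.15 (SD, n = 3 each). The groups did not overlap, but the fitted difference of 3.40 (SE 1.75) had a limma adjusted p of 0.465. Without week 6 high fat replicate 2 that difference was 1.69. The week 18 difference was -0.36 (SE 1.75, limma adjusted p = 0.975), and it was -1.93 without high fat replicate 2 and 1.54 without chow replicate 3. The week 30 difference was -2.79 (limma adjusted p = 0.333), and it was -0.86 without chow replicate 2. The mean over the 3 weeks was 0.08 (SE 1.01, limma adjusted p = 0.966), and the diet by time test gave a limma adjusted p of 0.539.

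miR-34c-5p was detected on all arrays of no group and so stood outside the 609 tested miRNAs. It was at least 5.24-fold higher on high fat at week 6, where 2 of 3 arrays detected it and no chow array did. At week 30 it was at least 4.64-fold lower on high fat, where 0 of 3 high fat and 2 of 3 chow arrays detected it. Each bound rested largely on 1 array, week 6 high fat replicate 2 (8.98) and week 30 chow replicate 2 (9.15). The week 30 groups overlapped, with chow replicate 1 also at the floor. In a fit to all 1881 miRNAs the differences of miR-34c-5p were 2.61, -0.39 and -2.21 at weeks 6, 18 and 30 (SE 1.81 each), with a limma adjusted p of 0.924 or above. At week 6, 3 of the 4 members (miR-34a-5p, miR-34b-5p and miR-34c-5p) had groups that did not overlap, miR-34a-5p lower and the other pair higher on high fat, beside 15.9% of the 609 tested miRNAs, of which miR-34c-5p is not one. The exact permutation p of the 3-week mean was 0.924 for miR-34b-5p and 1 for miR-34c-5p.

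**Figure D2:**
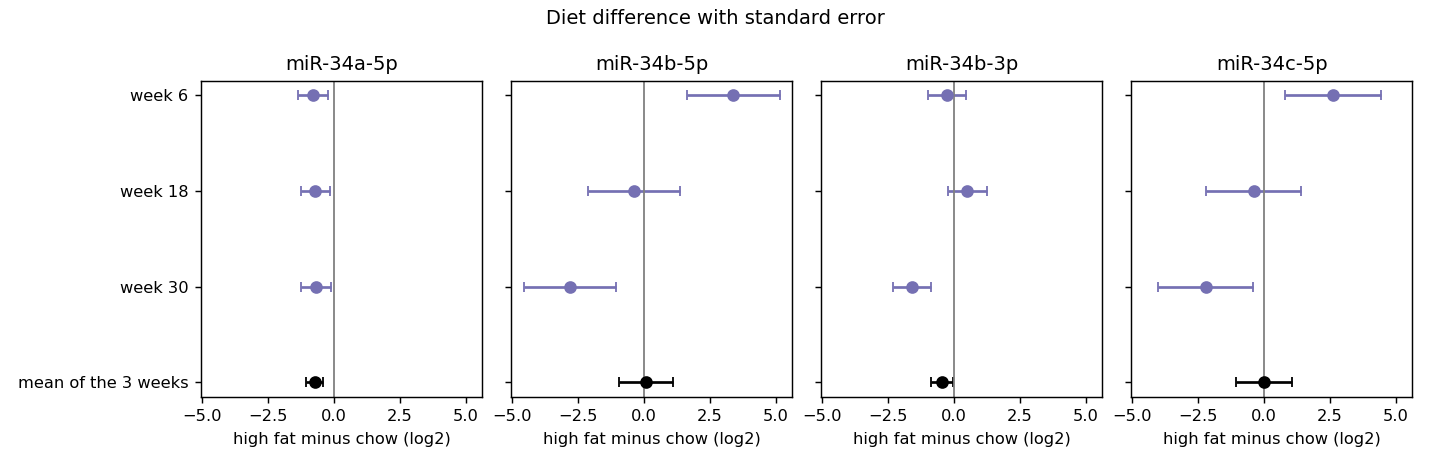
High fat minus chow (log2, x axis) with its standard error for each member at weeks 6, 18 and 30 and for the mean of the 3 weeks (black); miR-34c-5p comes from the fit without a detection filter. miR-34a-5p sits at -0.78 to -0.67 at every week, and miR-34b-5p runs between 3.40 at week 6 and -2.79 at week 30.

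miR-34b-3p, the passenger arm of miR-34b, was weaker and less tied to the 4 arrays. It was detected on 9 arrays, with a highest deposited intensity of 94.2 on week 18 high fat replicate 3, the array with the raised negative-control SD, which did not rise above background there. On week 6 high fat it read 4.52, 5.83 and 3.10, against 4.82, 4.80 and 4.57 on week 6 chow, where miR-34b-5p was undetected. Of these week 6 chow values of miR-34b-3p, only the 4.80 of replicate 2 was well above background. On week 18 high fat it read 3.10, 4.47 and 5.69, against 3.10, 3.93 and 4.69 on chow. On week 30 high fat it read 3.10, 3.40 and 3.52, against 4.55, 6.32 and 3.94 on chow, and both week 0 arrays were at the floor. The week 30 groups did not overlap, as was so for 54.2% of the tested miRNAs at that week. The differences were -0.25, 0.51 and -1.60 at weeks 6, 18 and 30 (SE 0.73 each), and the last had a limma p of 0.0414 and an adjusted p of 0.274. Diet and slide cannot be told apart within week 30. The r of miR-34b-3p with miR-34b-5p was 0.64 over the 20 arrays and 0.14 over the 16 arrays outside the 4 high ones. On all 4 high arrays miR-34b-3p was detected.

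The members differed in their spread between arrays of the same group. Pooled over the 7 groups, the within-group SD of miR-34b-5p was 2.45 (log2), rank 1 of the 609 tested miRNAs, whose median was 0.78. The untested miR-34c-5p had a within-group SD of 2.25, above all but 1 of them. miR-449a-5p was at 1.58 (rank 17), miR-34b-3p at 0.94 (rank 189) and miR-34a-5p at 0.69 (rank 387). The next ranks after miR-34b-5p were held by miR-205-5p (2.16), miR-200b-3p (2.03), miR-200a-3p (1.99) and miR-141-3p (1.97).

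**Figure D3:**
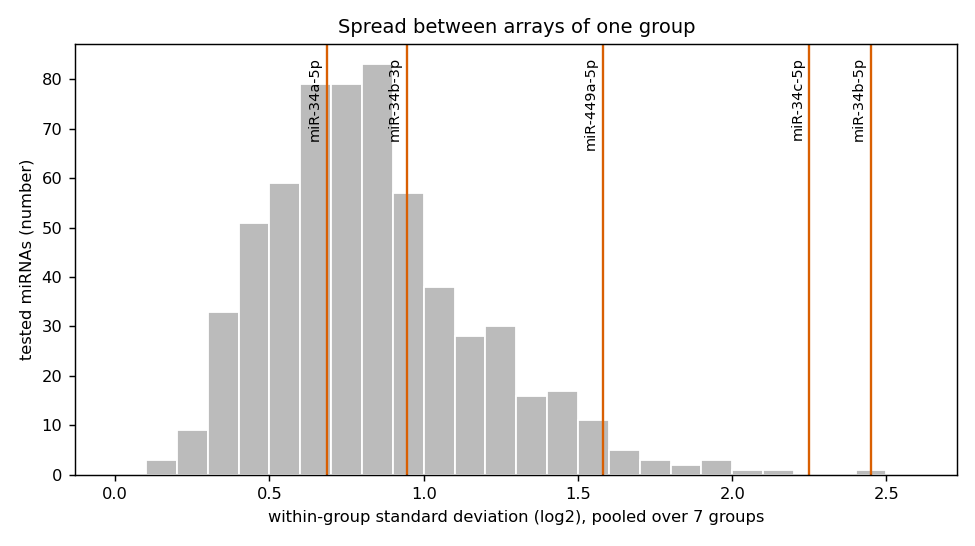
Number of tested miRNAs (y axis) by within-group standard deviation (log2, pooled over 7 groups, x axis), with lines for the family members and miR-449a-5p. miR-34b-5p lies at 2.45, beyond all other tested miRNAs, and miR-34a-5p at 0.69, below the median of 0.78.

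miR-34b-5p resembled miRNAs that mark epithelium. By the rule for the 5 most alike, its closest tested miRNAs over the 20 arrays were miR-200a-3p (r = 0.82), miR-141-3p (0.81), miR-429-3p (0.79), miR-449a-5p (0.78) and miR-199b-5p (0.75). The first 3 belong to the miR-200 family, which keeps epithelial cells in their state by lowering ZEB1 and ZEB2. These r values rest on the 4 high arrays, since over the other 16 arrays they were 0.20, 0.10, 0.14, -0.19 and 0.25. miR-200a-3p had deposited intensities of 360, 98.5, 278 and 373 on the 4 arrays, in the order given for miR-34b-5p, and miR-449a-5p had log2 levels of 6.58, 3.78, 7.60 and 7.04. Of the 12 epithelial markers, 11, 10, 12 and 11 were detected there, against 0 to 10 on the other 16 arrays. The summed scaled intensity of the striated muscle markers was 11915, 19297, 11480 and 3418 on the 4 arrays, against 522 to 12436 on the other 16. In bulk tissue, fewer cells of a type and less RNA per cell cannot be told apart.

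Epithelial markers were also high where miR-34b-5p and miR-34c-5p were not. The 3 week 6 chow arrays detected 9, 10 and 10 of the 12 markers, with miR-205-5p at 7.91, 7.95 and 10.49 and miR-200a-3p at 6.21, 6.39 and 6.06. They also detected miR-449a-5p, at 4.84, 5.03 and 4.48, while miR-34b-5p and miR-34c-5p were below background on all 3. miR-200a-3p was at 6.60 on week 18 high fat replicate 2, close to the 6.39 of week 6 chow replicate 2, while miR-34b-5p was at 8.15 on that high fat array and at 3.62, below background, on that chow array. The summed scaled intensity of the 12 epithelial markers ran between 171 and 2046 on week 6 high fat, against 831 and 2379 on week 6 chow. It ran between 95.4 and 544 on week 18 high fat, against 49.6 and 3012 on week 18 chow, and between 58.8 and 108 on week 30 high fat, against 200 and 1892 on week 30 chow. It was 243 and 244 on the week 0 arrays. miR-183-5p was detected on 1 array and miR-375-3p on 3. miR-449b and miR-449c-5p, the remaining markers of multiciliated cells on the array, were never detected. The part of epithelial RNA in the levels of miR-34b-5p and miR-34c-5p was not tested.

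**Figure D4:**
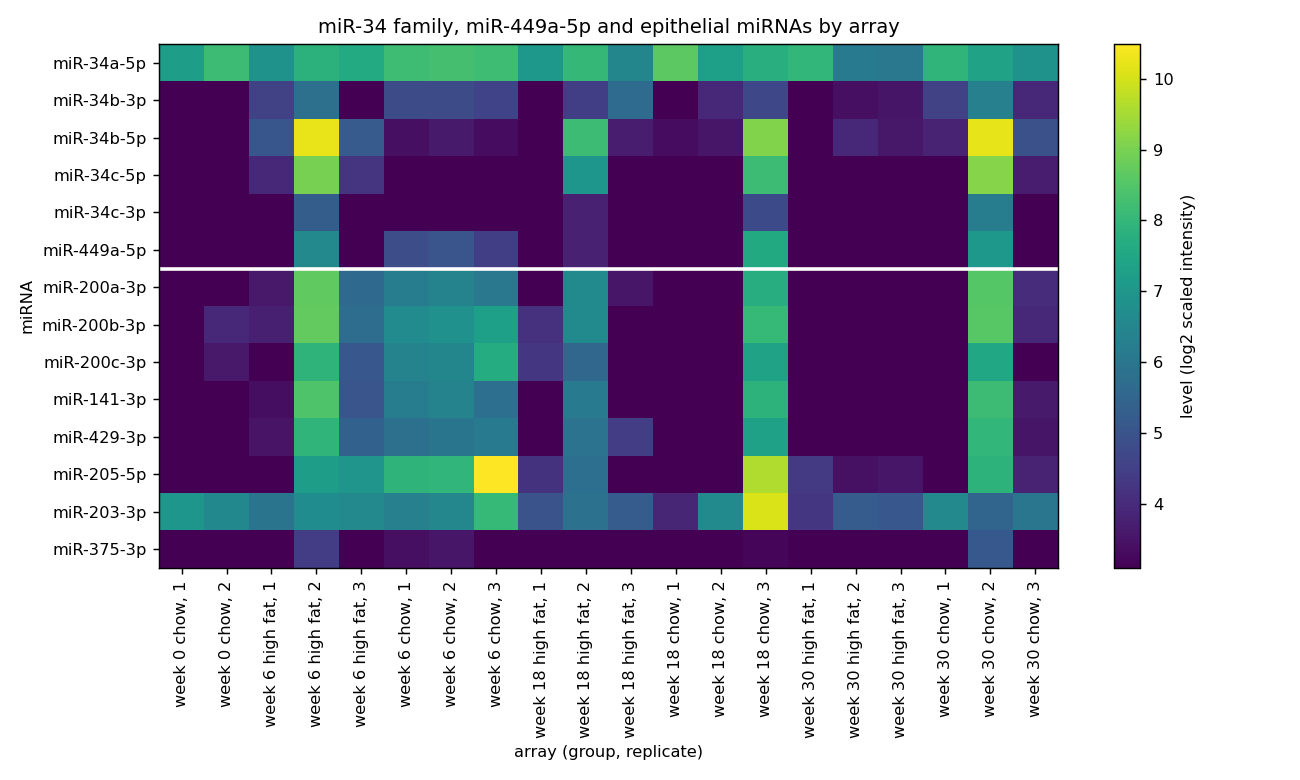
Log2 level (colour) of the miR-34 arms and miR-449a-5p (above the white line) and of 8 epithelial markers (below it) on each of the 20 arrays (x axis). Replicate 2 of high fat at weeks 6 and 18, replicate 3 of week 18 chow and replicate 2 of week 30 chow are bright in both blocks, and the 3 week 6 chow arrays are bright mostly in the lower block.

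miR-34a-5p resembled other miRNAs than its relatives did. Its 5 closest were miR-3069-3p (r = 0.86), let-7a-5p (0.84), miR-148b-3p (0.83), let-7d-5p (0.82) and let-7c-5p (0.81), 3 of them from the let-7 family, which holds back growth genes such as RAS and HMGA2. On slide 1 alone, over 8 arrays, these r values were between 0.38 and 0.80, on slide 2 (8 arrays) between 0.79 and 0.90 and on slide 3 (4 arrays) between 0.89 and 1.00. The r of miR-34a-5p with miR-34c-5p was 0.13 and with miR-34b-5p 0.07 over the 20 arrays, which share scaling and slide.

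Over time, no step of a tested member passed the test on either diet. In the order of group means, miR-34a-5p stood at 8.23 on week 6 chow, 7.88 on week 18 chow, 7.68 on week 0 chow, 7.45 on week 6 high fat, 7.41 on week 30 chow, 7.18 on week 18 high fat and 6.73 on week 30 high fat. Each neighbouring pair in this order lay closer together than the larger of its SDs. On chow its steps were 0.55 for week 6 against week 0, -0.35 for week 18 against week 6 and -0.47 for week 30 against week 18, with limma adjusted p of 0.676, 0.712 and 0.991. The tests called 21.7%, 15.9% and 0% of all miRNAs in these steps, with 174, 182 and 3 at an unadjusted p under 0.05. On high fat the steps were -0.23, -0.27 and -0.45, with limma adjusted p of 0.918, 0.850 and 0.811, and 0% of all miRNAs were called in each, with 46, 62 and 19 at an unadjusted p under 0.05. The chow and high fat steps of week 6 share the week 0 arrays, and the median over all tested miRNAs was 0.62 in the chow step and 0.51 in the high fat step.

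Groups of neighbouring weeks did not overlap for 3 of the 3 tested members on chow at week 6 against week 0 (63.9% of all tested miRNAs) and for 1, miR-34b-5p, on high fat at that step (18.2%). In the chow step miR-34b-5p was detected on 0 of 3 arrays at week 6 and 0 of 2 at week 0. There miR-34b-3p was detected on 1 of 3 and 0 of 2, so both separations lie largely below background. The groups overlapped for all 3 tested members on chow at week 18 against week 6 and week 30 against week 18 (35.3% and 3.28% of all tested miRNAs did not overlap), and on high fat at the same steps (1.15% and 7.72%).

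The time steps of the other members were wide. miR-34b-5p was at least 13.5-fold higher at week 6 on high fat, where 3 of 3 arrays detected it, than at week 0, where 0 of 2 did, with a limma adjusted p of 0.520. The fitted difference was 3.75, and it was 1.997 without week 6 high fat replicate 2. On week 6 chow and at week 0 it was not detected, so that no fold is given. miR-34b-3p was at least 3.11-fold higher on week 6 chow (1 of 3 arrays detected) and at least 2.62-fold higher on week 6 high fat (2 of 3 detected) than at week 0 (0 of 2 detected), with limma adjusted p of 0.199 and 0.520. With only the 2 groups in the fit, the chow step of miR-34b-3p had a limma adjusted p of 0.00179, with both week 0 arrays at the floor, where they add no spread. Without the 4 arrays with the fewest detected miRNAs, its high fat step was 2.23 with a limma adjusted p of 0.0375.

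Other miRNAs linked to p53 did not pass the test for diet either. Of all tested miRNAs, 2.79%, 0% and 0% were called for diet at weeks 6, 18 and 30, and 0% to 21.7% over all comparisons. A list of miRNAs that p53 raises by transcription or processing held 10 tested members, among them miR-107-3p, miR-192-5p and the growth-restraining miR-15a-5p and miR-16-5p, and 0 of the 10 passed limma in any comparison (at most 2 had an unadjusted p under 0.05). Its median diet difference was -0.20, 0.12 and -0.80 at weeks 6, 18 and 30, beside -0.12, 0.27 and -0.14 over all 609 tested miRNAs. At week 30 the median was below 0 for the list and for all tested miRNAs. In the list miR-15a-5p was then at -1.78 (SE 0.78, limma adjusted p = 0.270), miR-16-5p at -1.50 and miR-145a-5p at 0.66. Diet and slide cannot be told apart at week 30, for this list or for those below. The list also holds miR-200c-3p and miR-141-3p, which are on the epithelial list, and, of the smooth muscle markers, miR-145a-5p and miR-143-3p.

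For diet, 2.79%, 0% and 0% of all tested miRNAs were called at weeks 6, 18 and 30. Of 3 tested miRNAs known to lower p53 itself, none passed for diet. Their median diet difference was 0.12, -0.15 and -0.15 at weeks 6, 18 and 30. In 1 time step a member of this list fell: miR-25-3p, which targets the p53 message, differed by -2.11 (SE 0.47, limma adjusted p = 0.00647) between week 18 and week 6 on chow, a step in which all 97 called miRNAs were lower at week 18. Week 6 and week 18 were on different slides, so that time and slide cannot be told apart there. The call of miR-25-3p was lost without scaling (-2.13, adjusted p = 0.326), with every miRNA in the percentile (-1.44, adjusted p = 0.135), with normexp background correction (-1.45, adjusted p = 0.116), with near-identical arrays averaged (-2.03, adjusted p = 0.0505) and without week 18 chow replicate 1 (-1.82, adjusted p = 0.054). Of 7 tested miRNAs linked to vascular ageing, such as miR-21a-5p, miR-146a-5p and miR-29b-3p, 0 passed limma in any comparison (at most 1 had an unadjusted p under 0.05). The comparisons called 0% to 21.7% of all tested miRNAs. Median diet differences of these 7 were 0.25, 0.0054 and -0.996 at weeks 6, 18 and 30. At week 30 miR-21a-5p was at -1.74 (SE 0.78, limma adjusted p = 0.272). The week 30 medians of other lists were -1.63 for epithelium (10 tested), -1.52 for red cells (2), -1.26 for endothelium (2) and -0.036 for smooth muscle (3). Week 30 high fat replicate 1 detected 355 miRNAs, and its summed scaled intensity of the ageing list was 4422, against 8322 and 7261 on high fat replicates 2 and 3 and 9870 to 11407 on week 30 chow. The part of these in the medians of the p53-linked and ageing lists was not tested.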

How the data were processed

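The submitters' processing notes name Agilent Feature Extraction 11.5.1. Per the file headers, each array's deposited file gives a linear, background-subtracted intensity for every spot. The deposited value table held the same intensities in all 20 columns. Control spots and outlier spots were left out, the mean of a probe's spots and then of a miRNA's probes was taken, and 0 spots were saturated. A miRNA was detected where at least 0.5 of the spots of a probe were well above background. Arrays were scaled to their 75th percentile, taken over 192 miRNAs that all 20 arrays detected, then floored, and the deposited intensity became a log2 level. limma 3.58.1 (R 4.3.3) was fitted to the 609 miRNAs that 1 or more groups detected on each of their arrays, all 7 groups together with 13 residual degrees of freedom, with Benjamini-Hochberg adjustment, a threshold of 0.05 and no replicate block. It was also run on simulated data with independent normal errors and no floor. Those data do not cover values at the floor or single high arrays. A lower bound of a fold sets the brighter group's mean against the lowest signal detected on the dimmer arrays, the dimmer signal itself or the floor, whichever is highest. Depth is unknown for arrays, and their number limits the precision.

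The members and the lists were chosen with earlier results of these data known. The named miRNAs are the members, the other miR-34 arms, the miR-449 miRNAs, called or smallest-p members of the lists, and the 5 most correlated with each member detected on at least 10 arrays. Other lists of cell types (leukocyte, red cell, striated muscle, adipose, fibroblast and neuron markers) served as a background check. All same-numbered correlations exceeded 0.1, the rule for a replicate block, only in high fat week 30 against week 18 (0.38, 0.30 and 0.35). No label pairs these arrays, and week 18 high fat replicate 3 lay closest to week 30 high fat replicate 2 (SD 0.19). The fit with a replicate block changed no call of a member in that step. Other scalings, background corrections, filters, a slide block, averaged near-identical arrays of the same group and left-out arrays were the alternatives. The other allele of the mice is not reported here.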

Additional observations from a re-analysis of the deposited data

How the results depend on the processing

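Counts of called miRNAs moved with the processing while no diet call of a member was gained under the limma settings tried. For high fat against chow at week 6 (17 called), 3 were called without scaling, 8 when every miRNA entered the 75th percentile, 2 with normexp, 8 with the floor lower by 1, 0 of the 192 detected on all 20 arrays, 4 with only the 2 groups fitted, 6 with near-identical arrays averaged and 10 without the 4 arrays with the fewest detected miRNAs. At week 30 (0 called) it was 10 with no filter, 1 with the slide block, 117 with only the 2 groups fitted and 5 without the 4 arrays. For chow at week 6 against week 0 (132 called) the same kinds of setting gave 85 (75th percentile), 25 (quantile), 1 (no scaling), 35 (normexp), 0 (detected on all arrays), 58 (no filter), 231 (only the 2 groups), 11 (near-identical averaged) and 219 (without the 4 arrays). For chow at week 18 against week 6 (97 called) they gave 13 (75th percentile), 49 (quantile), 5 (no scaling), 7 (normexp), 1 (detected on all arrays) and 14 (near-identical averaged). On high fat (0 called in each step), week 6 against week 0 had 1 call with no filter and 128 without the 4 arrays, week 18 against week 6 had 10 without the 4 arrays and 1 with the description groups, and week 30 against week 18 had 3 with no filter, 1 with the slide block and 1 without the 4 arrays. The mean diet effect (0 called) had 10 with no filter, 6 without the 4 arrays and 4 with the description groups. Diet by time (6 called) had 0 with the 75th percentile, no scaling, normexp and detection on all arrays, 1 with quantile, 13 with no filter, 1 with near-identical averaged and 10 without the 4 arrays. The causes were not tested.

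With 1 array left out at a time the counts ran between 6 and 23 for diet at week 6, 0 and 6 at week 30, 9 and 161 for chow week 6 against week 0, 25 and 159 for chow week 18 against week 6, 0 and 4 for high fat week 30 against week 18, 0 and 10 for the mean diet effect and 1 and 10 for diet by time, and stayed at 0 in the other comparisons. Split by direction, chow week 6 against week 0 without the 4 arrays gave 167 higher and 52 lower, the 75th percentile 26 and 59, quantile 12 and 13. The replicate block called 18 miRNAs for diet at week 6 and changed no call of a member.

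Signs of members turned as follows. With every miRNA in the 75th percentile, week 6 diet was 0.15 for miR-34b-3p, chow week 6 against week 0 was -0.90 for miR-34a-5p and -0.28 for miR-34b-5p, and chow week 18 against week 6 was 0.32 for miR-34a-5p. Quantile gave 0.23 for miR-34b-3p (week 6 diet), and -0.17 for miR-34a-5p and -0.26 for miR-34b-5p (chow week 6 against week 0). No scaling gave 0.35 for miR-34b-3p (week 6 diet), 0.33, 0.44 and 0.53 for miR-34a-5p (week 18 diet, chow week 30 against week 18, high fat week 18 against week 6), 0.19 for miR-34b-3p (high fat week 18 against week 6) and -0.12 for miR-34c-5p (permuted mean). Normexp gave -0.52 and 0.047 for miR-34b-3p (diet at weeks 18 and 30), -0.28 and -0.35 for miR-34b-5p and miR-34b-3p (chow week 30 against week 18), 0.22 for miR-34b-3p (high fat week 30 against week 18) and -0.22 for miR-34b-5p (mean diet). A lower floor gave -0.14 for miR-34b-5p (mean diet). The slide block rested on week 18 high fat replicate 3 alone and could not be estimated for week 18 against week 6. It gave 0.30 for miR-34b-5p and -0.12 for miR-34b-3p (week 18 diet), and 0.37 and 0.25 for miR-34a-5p (week 30 diet, high fat week 30 against week 18). Without the 4 arrays miR-34b-3p was 0.76, -0.68 and 0.0089 (diet at weeks 6 and 18, chow week 18 against week 6), miR-34a-5p -0.018 and 0.088 (chow week 6 against week 0, high fat week 18 against week 6), and chow week 30 against week 18 was -0.063 for miR-34b-5p and -0.22 for miR-34c-5p. The description groups gave 0.35, 0.054 and 0.26 for miR-34a-5p (week 18 diet, chow week 30 against week 18, high fat week 18 against week 6).

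Leaving out 1 array at a time also turned signs. The range was -0.90 to 0.45 for miR-34b-3p in week 6 diet, -1.93 to 1.54 for miR-34b-5p and -0.14 to 1.16 for miR-34b-3p in week 18 diet, -0.010 to 2.91 and -0.95 to 2.88 for miR-34b-5p in chow week 18 against week 6 and week 30 against week 18, -0.71 to 0.24 and -0.68 to 0.15 for miR-34a-5p in high fat week 6 against week 0 and week 18 against week 6, -0.77 to 0.60 for miR-34b-3p in high fat week 18 against week 6, -2.35 to 0.15 for miR-34b-5p in high fat week 30 against week 18, and -0.48 to 0.72 for miR-34b-5p in mean diet. For miR-34c-5p in mean diet, the only 2 left-out arrays that let it into the test gave -0.37 and 0.24. For the permuted means it was -0.93 to -0.59 (miR-34a-5p), -0.49 to 0.73 (miR-34b-5p), -0.67 to -0.21 (miR-34b-3p) and -0.55 to 0.64 (miR-34c-5p).

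The permuted mean of miR-34a-5p, whose alternatives other than no scaling were chosen after seeing the data, was -0.53 (no scaling, exact p = 0.135), -0.61 (near-identical averaged, exact p = 0.094) and -0.37 (description groups, exact p = 0.297), and -0.72 without the 4 arrays (exact p = 0.0283). The number of arrays and the floor limit all values of miR-34b-5p, miR-34b-3p and miR-34c-5p.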

Other observations

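miR-34b-3p, which was detected on too few arrays for the rule on likeness, was compared with the other tested miRNAs after its values were seen. Its closest were miR-7064-3p (r = 0.91), miR-7681-5p (0.91) and miR-7027-3p (0.91) over 20 arrays, and the same 3 reached 0.96, 0.95 and 0.96 over the 16 arrays outside the 4 on which miR-34b-5p was high. Its r with its own 5p partner was 0.64 over the 20 arrays and 0.14 over those 16 arrays.

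Of the other cell type lists, those of red cells, fibroblasts, adipose tissue, smooth muscle and endothelium had 0 members called in any comparison by limma, and at most 2 of a list had an unadjusted p under 0.05. The comparisons called 0% to 21.7% of all tested miRNAs. On chow, week 6 against week 0, the epithelial marker miR-205-5p was at least 51.6-fold higher (limma adjusted p = 0.0318; 3 of 3 arrays detected at week 6, 0 of 2 at week 0) and the striated muscle marker miR-206-3p was higher by 5.12 (log2, SE 1.36, adjusted p = 0.0224), detected on 1 of the 2 week 0 arrays. Each was the 1 called member of its list, of 10 tested epithelial and 4 tested striated muscle markers. Of these, 8 and 4 were above 0. The fitted miR-205-5p difference no longer passed under 6 settings: no scaling (5.27), every miRNA in the percentile (5.03), quantile normalization (4.99), no filter (5.69), near-identical arrays averaged (6.11) and without the 4 arrays with the fewest detected miRNAs (5.52). It passed in 14 of 20 cases when 1 array was left out. On chow, week 18 against week 6, the leukocyte markers miR-142a-3p and miR-142a-5p were at -4.15 and -3.93 (adjusted p = 0.00959 and 0.00967). These 2 arms of 1 hairpin were the only ones called of 5 tested leukocyte markers, of which 0 were above 0. The brain-enriched miR-128-3p was at -3.70 on high fat against chow at week 6 (adjusted p = 0.000373), at 3.85 on chow for week 6 against week 0 and at -5.06 for week 18 against week 6 (adjusted p = 0.000899 and 7.59e-06). It was the 1 called of 3 tested neuron markers each time. Of the 3, the number above 0 was 1, 2 and 1 in these comparisons, in the same order. Of all tested miRNAs, 15.9% were called in the last of these steps, 21.7% in the chow step before it and 2.79% for diet at week 6. Weeks 6 and 18 were on different slides, and without scaling 5 miRNAs were called between them on chow. Week 18 chow replicate 1 detected 2 of the 5 leukocyte markers.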
